A study of Mus musculus with 27 samples.

Results

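Tbx21, Eomes, Prdm1, Id2, Id3, Bcl6, Zeb2, Rora, Nfil3 and Stat4 encode regulators of transcription that act when T cells become effector or memory cells. They were taken by name from the 26802 genes of the count table, and all 10 were found there. RNA had been sequenced from mouse T cells to compare cells that lack Raptor, a subunit of mTORC1, or Rictor, a subunit of mTORC2, with wild-type cells, before and after stimulation. Each of 9 groups held 3 libraries. Raptor KO mice carried floxed Rptor (allele tm1.1Dmsa) and Rictor KO mice floxed Rictor (allele tm1.1Klg), both with the transgene Tg(Cd4-cre)1Cwi, in which the Cd4 promoter drives Cre. Wild-type (WT) mice were labelled B6, with no Cre named, so a control that carries Cre alone is not among the groups. Stimulated CD8+ cells came from Rictor KO, Raptor KO and WT mice. Resting CD8+ cells, stimulated CD4+ cells and resting CD4+ cells came from Raptor KO and WT mice. T cells from pooled lymph node and spleen were enriched with magnets by removal of other cells. They were cultured for 48 h on plates coated with antibodies to CD3 and CD28, each at 10 µg/ml, or in IL-7 at 5 ng/ml, which is called resting here. Live cells negative for MFG-E8, a protein that marks dying cells and vesicles, were then sorted. The labels give no ages. Nor do they state if each library of a group was made from a different animal, and p-values here rest on the variation among these libraries, which may be technical.

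T-bet (Tbx21) and Eomesodermin (Eomes) are T-box factors that switch on interferon gamma and cytotoxic genes. Stat4 carries the interleukin-12 signal to them, and Zeb2 is a repressor that acts with T-bet in terminal effector cells. Id2 and Id3 bind E proteins and keep them off DNA, and in mouse CD8+ cells Id2 is known for effector and Id3 for long-lived memory cells. Blimp-1 (Prdm1) and Bcl6 repress each other, with Bcl6 known for follicular helper and memory cells and Blimp-1 for terminally differentiated ones. Nfil3 and Rora bind DNA elements shared with the circadian clock and act in lymphocyte lineages.

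Library totals ran from 8640699 to 16817347 counts. The ribosomal precursor Rn45s took 81.1% to 88.4% of them and was left out, which left 1522199 to 2515583 counts per library. Levels are CPM, which is each gene's share of that remainder scaled to 1000000 counts after TMM scaling, and 10493 genes were tested. Scaling to totals that include Rn45s shifted the median log2 fold change of all genes by -0.52 to 0.77 in the 18 comparisons made, and calls that this ends are named with their values. Cd4 averaged 175 to 301 CPM in CD4+ groups and at most 2.76 CPM in CD8+ groups. Rptor averaged 19.8 ± 2.68 CPM in stimulated Raptor KO CD8+ cells and 23.5 ± 5.27 CPM in WT, and Rictor 39.1 ± 1.61 CPM in Rictor KO and 45.0 ± 7.19 CPM in WT (SD, n = 3 each). Counts over whole genes do not show the deleted exons, so they are a weak check of the genotype. All 3 Rictor KO libraries carry 1 library code, which each other group carries on 1 library. In bulk RNA, fewer cells of a type and less RNA per cell cannot be told apart. The strand used in counting is not given, and Eomes, Bcl6 and Rora overlap genes on the opposite strand that held 5, 29 and 22 counts over all libraries, against 566, 184 and 708 for the member. Stat4 shares 1033 exon bases with Gm28177 on the same strand, which held 15 counts against 1849 for Stat4. How reads in shared bases were counted is not given.

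RefSeq sequences of build GRCm38.p6 gave 15 windows of 250 bases upstream of a start for the 10 genes, with GC contents of 44.0% to 81.6% and a median of 52.4% over all 32851 windows of that table. Both strands were searched for the AP-1 letters TGANTCA, the cyclic AMP response half-site TGACG, the gamma-activated site TTCNNNGAA bound by STAT dimers and the CCAAT box. They were found in 6.75%, 17.8%, 7.02% and 33.8% of all windows in that order. The windows shown belong to both T-box genes, because Tbx21 rose on stimulation and Eomes differed between genotypes, and to both starts of Bcl6, which fell. Capitals mark every match, and each window reads 5′ to 3′ on the strand of the gene.
Tbx21, chr11:97115332-97115581, minus strand: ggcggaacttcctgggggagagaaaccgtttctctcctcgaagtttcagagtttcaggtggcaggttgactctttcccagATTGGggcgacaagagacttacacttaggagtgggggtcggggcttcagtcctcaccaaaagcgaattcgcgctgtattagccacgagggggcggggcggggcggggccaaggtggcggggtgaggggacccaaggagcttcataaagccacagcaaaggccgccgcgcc
Eomes, chr9:118477939-118478188, plus strand: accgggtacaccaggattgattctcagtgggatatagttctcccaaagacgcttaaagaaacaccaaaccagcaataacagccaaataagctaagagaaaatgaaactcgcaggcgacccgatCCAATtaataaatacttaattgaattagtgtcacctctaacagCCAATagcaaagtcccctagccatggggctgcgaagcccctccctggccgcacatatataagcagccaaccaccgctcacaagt
Bcl6, upstream start, chr16:23988853-23989102, minus strand: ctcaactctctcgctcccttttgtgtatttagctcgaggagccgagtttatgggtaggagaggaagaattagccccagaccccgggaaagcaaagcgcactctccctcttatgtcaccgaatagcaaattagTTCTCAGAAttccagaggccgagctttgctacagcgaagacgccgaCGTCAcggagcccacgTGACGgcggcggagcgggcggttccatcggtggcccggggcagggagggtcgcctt
Bcl6, downstream start, chr16:23981284-23981533, minus strand: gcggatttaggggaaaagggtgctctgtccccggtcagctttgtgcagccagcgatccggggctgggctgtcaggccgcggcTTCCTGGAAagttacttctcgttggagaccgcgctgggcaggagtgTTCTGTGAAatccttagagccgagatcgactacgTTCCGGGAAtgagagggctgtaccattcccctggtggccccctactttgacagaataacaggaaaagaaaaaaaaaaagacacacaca
The Tbx21 window holds a CCAAT box on the opposite strand, 170 bases before the start, and the Eomes window holds a pair of CCAAT boxes, 127 and 84 bases before it. The upstream Bcl6 window has 1 gamma-activated site and a pair of half-sites, and the downstream window has 3 gamma-activated sites, at 168, 122 and 88 bases before the start. These matches describe letters, not binding, and the AP-1 letters are in none of the 4 windows.

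Stimulation moved the 10 genes in both directions. Tbx21, Zeb2 and Nfil3 rose in both subsets of both genotypes, and Rora, Bcl6, Id2, Id3 and Stat4 were lower in some of the 4 comparisons. With edgeR's quasi-likelihood test and Benjamini-Hochberg adjustment over all genes tested, 7 of the 10 were called in Raptor KO CD8+ cells (4 higher and 3 lower), where 55.6% of all genes were called (29.5% higher and 26.0% lower). In WT CD8+ cells 5 were called (3 higher and 2 lower), against 62.8% of all genes (32.0% higher and 30.8% lower). In Raptor KO CD4+ cells 7 were called (3 higher and 4 lower), against 52.0% (27.9% higher and 24.1% lower), and in WT CD4+ cells 6 (3 higher and 3 lower), against 64.9% (32.4% higher and 32.5% lower). Stimulated and resting libraries did not overlap for 8, 7, 7 and 5 of the 10 genes in that order, against 58.2%, 67.9%, 57.3% and 67.5% of all genes. These shares lie near those of all genes, so they say little about the 10 as a set. Median log2 fold changes of the 10 genes were 0.14, 0.03, -0.50 and -0.47 in that order, and those of all genes 0.03, 0.00, 0.04 and -0.03. The Raptor KO and WT comparisons share no library, but each genotype comparison below shares libraries with a stimulation comparison.

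**Figure D1:**
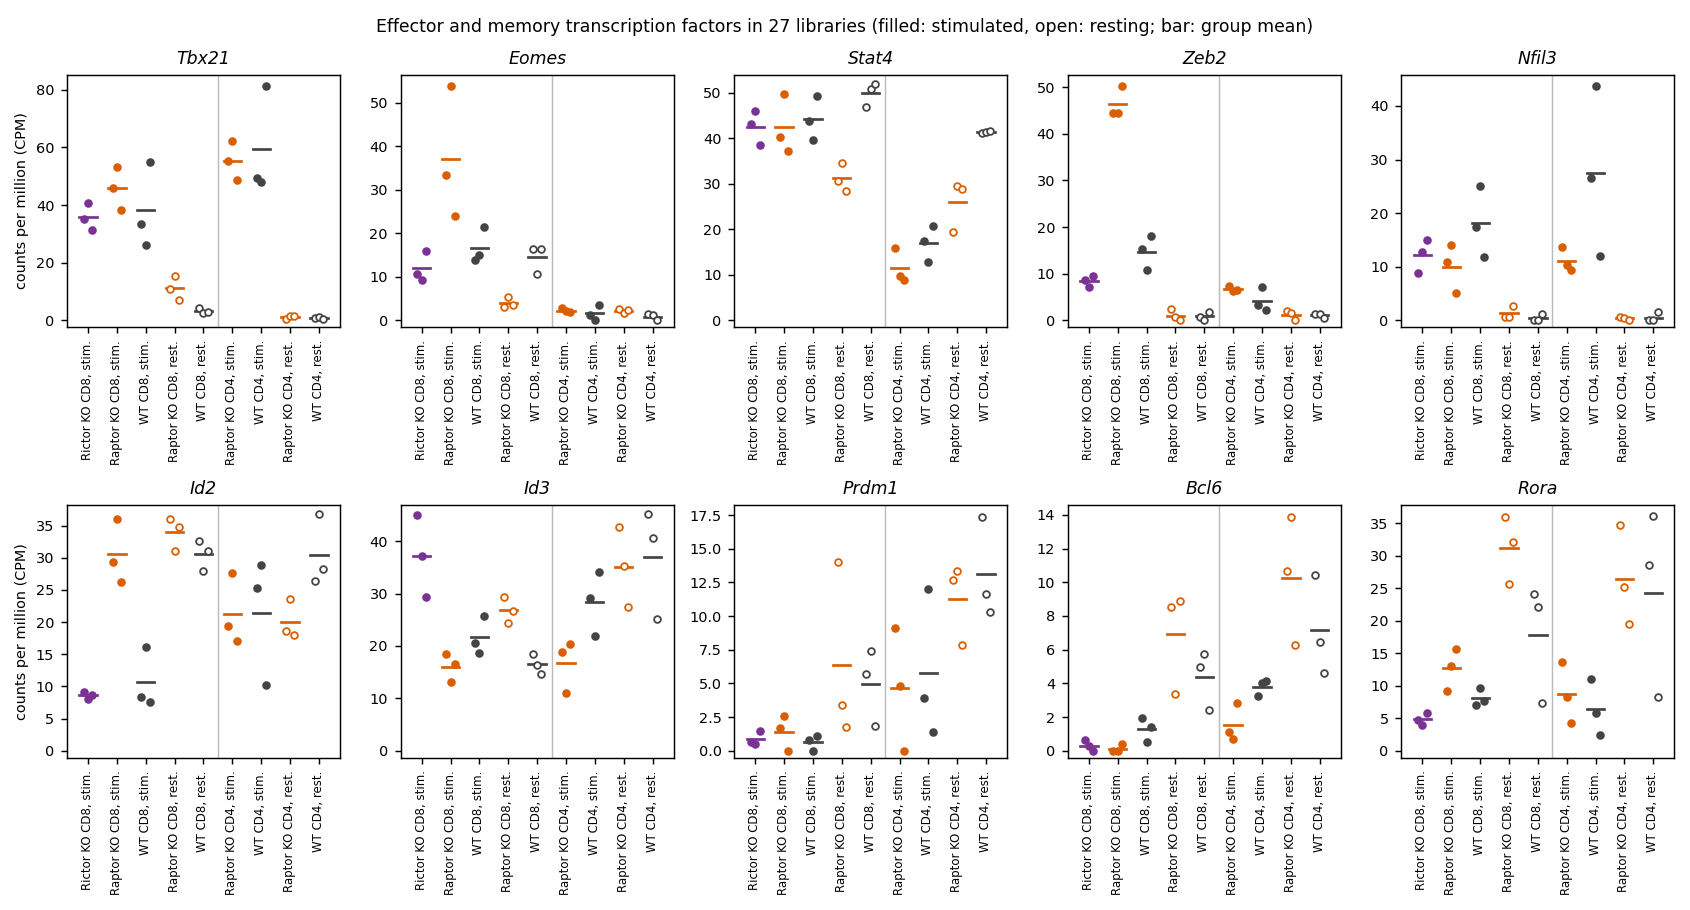
Level of each of the 10 genes in CPM (vertical axes, linear from 0) in each library of the 9 groups, with filled points for stimulated and open points for resting cells and a bar at the group mean. Tbx21 is high in every stimulated group, Zeb2 is highest in stimulated Raptor KO CD8+ cells (44.4 to 50.2 CPM), and Bcl6 and Prdm1 are low in stimulated CD8+ cells.

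Of the T-box factors, Tbx21 was the gene that marked stimulation in every group. In CD8+ cells it stood at 35.2, 40.6 and 31.3 CPM in the 3 stimulated Rictor KO libraries, at 46.0, 53.3 and 38.4 CPM in stimulated Raptor KO and at 33.5, 26.2 and 54.9 CPM in stimulated WT libraries. In resting CD8+ cells it stood at 11.0, 15.5 and 7.13 CPM in Raptor KO and 4.26, 2.46 and 3.05 CPM in WT libraries. No resting library reached a stimulated one, and the 3 stimulated CD8+ groups overlapped. Stimulation raised it by 1.98 ± 0.28 (log2 ± SE, adjusted p = 1.49e-07) in Raptor KO and by 3.56 ± 0.35 (adjusted p = 4.45e-11) in WT CD8+ cells. The difference between these 2 rises, -1.57 ± 0.51, did not pass (adjusted p = 0.0856). It did with no filter on low counts (-1.65, adjusted p = 0.0168) or without stimulated WT CD8+ replicate 2 (-1.76, adjusted p = 0.0352). In CD4+ cells Tbx21 stood at 55.3, 62.0 and 48.6 CPM in stimulated Raptor KO and 49.3, 48.1 and 81.2 CPM in stimulated WT libraries. Resting CD4+ libraries held 0.667, 1.60 and 1.56 CPM in Raptor KO and 0.696, 1.29 and 0.514 CPM in WT. The rise in CD4+ cells was 5.35 ± 0.41 in Raptor KO (adjusted p = 7.46e-14) and 6.12 ± 0.42 in WT (adjusted p = 1.8e-15), with no overlap of the groups. Tbx21 was over the cutoff of the filter on low counts in 17 libraries. Only the 5 stimulated groups had every library over it, so Tbx21 entered the tests through the groups where it was high. The smaller log2 change in CD8+ than in CD4+ cells of WT, a difference of -2.56, did not pass the test (adjusted p = 0.106), though it did without stimulated WT CD8+ replicate 3 (-2.95, adjusted p = 0.0214).

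Eomes was higher in CD8+ than in CD4+ cells except in resting Raptor KO, where the difference was 0.87 ± 0.67 on the log2 scale and did not pass (adjusted p = 0.672), and among stimulated CD8+ cells it was highest in Raptor KO. It stood at 10.8, 9.29 and 15.9 CPM in stimulated Rictor KO, at 33.5, 53.8 and 23.9 CPM in stimulated Raptor KO and at 13.8, 15.0 and 21.5 CPM in stimulated WT CD8+ libraries. Resting CD8+ libraries held 3.05, 5.41 and 3.57 CPM in Raptor KO and 16.3, 10.7 and 16.5 CPM in WT. So Raptor KO cells had the highest libraries of all when stimulated and the lowest CD8+ libraries when resting, with no overlap with WT in either culture. In the 12 CD4+ libraries Eomes did not exceed 3.58 CPM. Eomes was over the cutoff of the filter on low counts in 13 libraries. The 4 groups with every library over it were resting WT and stimulated WT, Raptor KO and Rictor KO CD8+ cells. Thus Eomes, too, entered the tests through groups where it was high. Stimulation raised it by 3.18 ± 0.42 on the log2 scale in Raptor KO CD8+ cells (adjusted p = 3.97e-08), and its change in WT CD8+ cells was 0.22 ± 0.35 (adjusted p = 0.601; with Rn45s in the totals 1.02, adjusted p = 0.043). The difference between these 2 changes was 2.97 ± 0.56 (adjusted p = 0.00143), and with Rn45s in the totals it was 2.48 (adjusted p = 0.0638). Of the 10 genes, 2 passed this test of a difference between Raptor KO and WT in the CD8+ stimulation response, against 2.89% of all genes, and Id2 was the other.

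**Figure D2:**
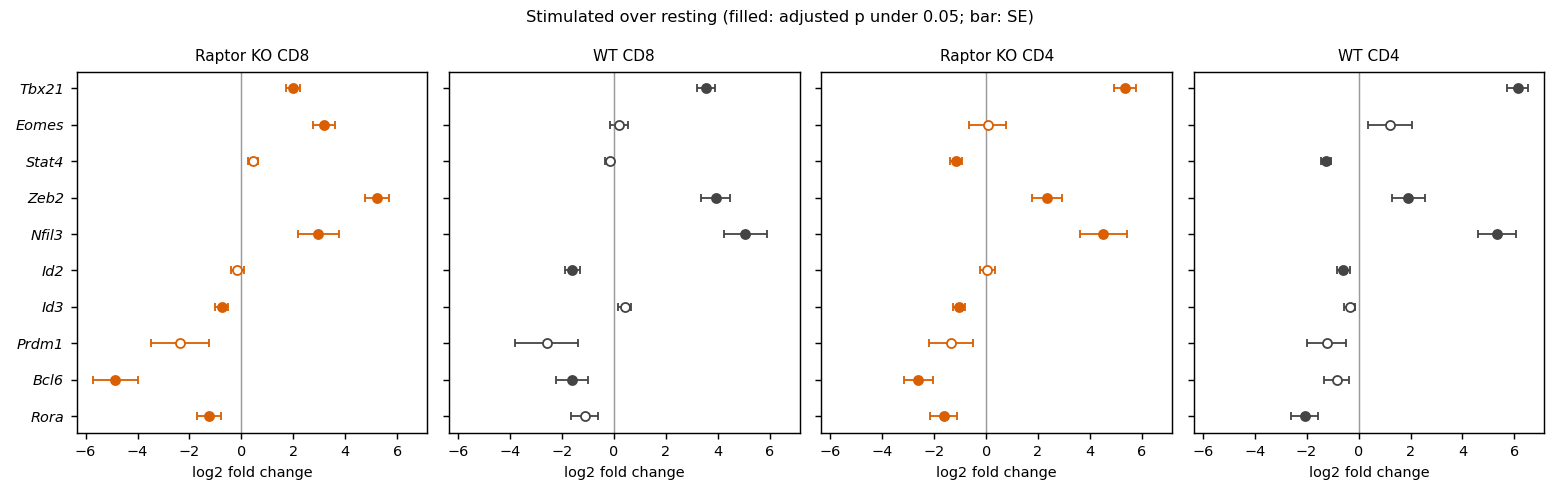
Log2 fold change of stimulated over resting cells (horizontal axis) with its standard error for the 10 genes, in Raptor KO CD8+, WT CD8+, Raptor KO CD4+ and WT CD4+ cells from left to right. Filled points have an adjusted p under 0.05. Eomes lies at 3.18 in Raptor KO CD8+ and 0.22 in WT CD8+ cells, and Tbx21, Zeb2 and Nfil3 lie right of 0 in each panel.

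Genes that T-box factors are known to switch on were read from a list of 17, of which 13 were tested. On stimulation of WT CD8+ cells 7 rose and 5 fell, where 62.8% of all genes were called, and of WT CD4+ cells 6 rose and 6 fell, where 64.9% of all genes were called. Their median log2 fold change was 0.80 in CD8+ and -0.03 in CD4+ cells, beside 0.00 and -0.03 for all genes. Gzmb, granzyme B, averaged 1.36e+03 ± 246 CPM in stimulated and 0.473 ± 0.819 CPM in resting WT CD8+ cells. Il2rb, the interleukin-2 and interleukin-15 receptor beta chain, averaged 452 ± 59.9 CPM in stimulated and 121 ± 26.4 CPM in resting WT CD8+ cells, a rise of 1.90 ± 0.17 (adjusted p = 5.72e-13). Cxcr3, a chemokine receptor gene that T-bet switches on, fell in WT CD8+ cells by 1.66 ± 0.45 (adjusted p = 0.00147), and with Rn45s in the totals the change was -0.86 (adjusted p = 0.136). Between subsets, 7 of the 13 were higher and none lower in stimulated WT CD8+ than CD4+ cells, against 3.08% of all genes called higher and 2.11% lower. Ifng, interferon gamma, averaged 130 ± 54.9 CPM in CD8+ and 4.59 ± 3.28 CPM in CD4+ cells, a difference of 4.58 ± 0.46 (adjusted p = 1.24e-05). Prf1, perforin, averaged 19.6 ± 0.882 CPM in CD8+ and 1.64 ± 0.923 CPM in CD4+ cells (3.35 ± 0.38, adjusted p = 2.14e-08).

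Stat4, the signal transducer below the interleukin-12 receptor, fell with stimulation in CD4+ cells, and the main test called no change in CD8+ cells. It stood at 15.9, 9.65 and 8.97 CPM in stimulated Raptor KO and 17.5, 12.9 and 20.6 CPM in stimulated WT CD4+ libraries, and at 19.4, 29.4 and 28.9 CPM in resting Raptor KO and 41.0, 41.3 and 41.6 CPM in resting WT CD4+ libraries. In both genotypes every stimulated CD4+ library lay below every resting one. It fell by 1.17 ± 0.23 on the log2 scale in Raptor KO CD4+ cells (adjusted p = 4.78e-05) and fell by 1.25 ± 0.19 in WT CD4+ cells (adjusted p = 4.55e-07). CD8+ libraries held 43.1, 45.9 and 38.5 CPM in stimulated Rictor KO, 40.2, 49.7 and 37.2 CPM in stimulated Raptor KO and 43.8, 39.6 and 49.2 CPM in stimulated WT cells. Resting CD8+ libraries held 30.5, 34.5 and 28.5 CPM in Raptor KO and 46.8, 50.9 and 51.8 CPM in WT. The WT groups overlapped here, whereas every stimulated Raptor KO library lay above every resting one. The change was 0.43 ± 0.19 in Raptor KO (adjusted p = 0.0503) and -0.16 ± 0.17 in WT CD8+ cells (adjusted p = 0.418). In Raptor KO CD8+ cells the call was made without resting replicate 2 (0.51, adjusted p = 0.0477) or stimulated replicate 3 (0.54, adjusted p = 0.0326). The stimulation effect in WT was 1.09 ± 0.26 higher in CD8+ than in CD4+ cells (adjusted p = 0.0179), 1 of the 10 genes called in this comparison against 1.44% of all genes. That call was lost without stimulated WT CD4+ replicate 2 (0.92, adjusted p = 0.0798), resting WT CD8+ replicate 1 (1.04, adjusted p = 0.0533) or stimulated WT CD8+ replicate 3 (1.00, adjusted p = 0.0501), and with Rn45s in the totals (1.57, adjusted p = 0.259).

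Receptors and kinases that feed Stat4 and the other members were read from a list of 16. On stimulation of WT CD8+ cells 5 rose and 9 fell, where 32.0% of all genes were called higher and 30.8% lower, and of WT CD4+ cells 6 rose and 9 fell, where 32.4% were called higher and 32.5% lower. Il12rb1, a chain of the interleukin-12 receptor, averaged 70.5 ± 4.34 CPM in stimulated and 2.85 ± 0.423 CPM in resting WT CD8+ cells (log2 change 4.61 ± 0.32, adjusted p = 1.03e-14). It averaged 121 ± 19.2 CPM in stimulated and 4.06 ± 2.46 CPM in resting WT CD4+ cells (4.94 ± 0.28, adjusted p = 5.28e-17). Il12rb2, the other chain, rose by 5.33 ± 0.69 in CD8+ (adjusted p = 1.71e-06) and 4.61 ± 0.79 in CD4+ cells (adjusted p = 4.73e-05). Il18r1, an interleukin-18 receptor chain, fell by 1.62 ± 0.25 in CD8+ (adjusted p = 8.01e-07) and fell by 5.39 ± 0.42 in CD4+ cells (adjusted p = 6.54e-14). It averaged 16.1 ± 5.57 CPM in stimulated WT CD8+ and 1.13 ± 0.728 CPM in stimulated WT CD4+ cells. With Rn45s in the totals the CD8+ change of Il18r1 was -0.82 (adjusted p = 0.0757). Ifngr1, an interferon gamma receptor chain, fell by 2.93 ± 0.33 in CD8+ (adjusted p = 1.71e-07) and fell by 3.59 ± 0.35 in CD4+ cells (adjusted p = 2.19e-08).

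Zeb2 was near the detection limit at rest and rose in every stimulated group for which a resting group exists. In stimulated CD8+ cells it stood at 8.56, 7.17 and 9.63 CPM in Rictor KO, at 44.4, 44.4 and 50.2 CPM in Raptor KO and at 15.4, 10.7 and 18.1 CPM in WT libraries. The 3 genotypes did not overlap, with Raptor KO highest and Rictor KO lowest. No resting library of either subset exceeded 2.44 CPM. Stimulated CD4+ libraries held 7.41, 6.20 and 6.61 CPM in Raptor KO and 3.24, 7.13 and 2.20 CPM in WT. The log2 rise was 5.24 ± 0.46 in Raptor KO CD8+ (adjusted p = 1.06e-12), 3.92 ± 0.55 in WT CD8+ (adjusted p = 5.16e-08), 2.34 ± 0.59 in Raptor KO CD4+ (adjusted p = 0.000903) and 1.92 ± 0.64 in WT CD4+ cells (adjusted p = 0.00884). The WT CD4+ call was lost without resting replicate 3 (1.54, adjusted p = 0.0632) or stimulated replicate 2 (1.27, adjusted p = 0.117). Zeb2 was over the cutoff of the filter on low counts in 12 libraries. The 3 stimulated CD8+ groups were the only ones with every library over it.

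Nfil3, a basic leucine zipper repressor, was almost absent from resting cells. Stimulated CD8+ libraries held 8.88, 12.7 and 14.9 CPM in Rictor KO, 10.9, 14.1 and 5.10 CPM in Raptor KO and 17.3, 25.2 and 11.9 CPM in WT. Stimulated CD4+ libraries held 13.7, 10.3 and 9.45 CPM in Raptor KO and 26.6, 43.7 and 12.1 CPM in WT. Every resting library lay at or under 2.67 CPM, below every stimulated one. Nfil3 was over the cutoff of the filter on low counts in 15 libraries, those of the 5 stimulated groups. It thus entered the tests through the groups where it was high. Summed over 3 libraries, WT CD4+ cells gave 183 counts stimulated and 3 resting, a ratio per library size of 40.6 (95% interval 13.7 to 199). The ratio in WT CD8+ cells, from 133 and 2 counts, was 35.7 (9.70 to 298), and in Raptor KO CD4+ cells, from 59 and 2 counts, 25.8 (6.82 to 218). These intervals cover counting error only. In Raptor KO CD8+ cells the log2 rise was 2.96 ± 0.78 (adjusted p = 0.00237), and limma-voom gave an adjusted p of 0.051. The other stimulated rises of Nfil3 had adjusted p-values of 0.000162 in Raptor KO CD4+, 8.22e-06 in WT CD8+ and 3.8e-07 in WT CD4+ cells.

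Rora, a nuclear receptor that binds the same DNA elements as the Rev-erb repressors, went the other way. Resting libraries held 36.0, 25.7 and 32.1 CPM in Raptor KO CD8+, 24.1, 22.2 and 7.32 CPM in WT CD8+, 34.7, 25.1 and 19.5 CPM in Raptor KO CD4+ and 28.5, 36.1 and 8.22 CPM in WT CD4+ cells. Stimulated libraries held 4.76, 3.98 and 5.78 CPM in Rictor KO CD8+, 9.21, 13.1 and 15.7 CPM in Raptor KO CD8+, 7.09, 9.64 and 7.64 CPM in WT CD8+, 13.7, 8.27 and 4.25 CPM in Raptor KO CD4+ and 11.0, 5.79 and 2.48 CPM in WT CD4+ cells. Replicate 3 was the lowest of its WT resting group in both subsets and overlapped the stimulated libraries. Rora fell by 1.25 ± 0.47 in Raptor KO CD8+ (adjusted p = 0.0299), fell by 1.63 ± 0.51 in Raptor KO CD4+ (adjusted p = 0.0116) and fell by 2.08 ± 0.53 in WT CD4+ cells (adjusted p = 0.00192). In WT CD8+ cells its change was -1.12 ± 0.53 (adjusted p = 0.0702), and it was called without resting replicate 3 (-1.53, adjusted p = 0.0127), with DESeq2 (adjusted p = 0.0356) and in a fit of the compared groups alone (adjusted p = 0.00881). The Raptor KO CD8+ call was lost without resting replicate 1 or 3 or stimulated replicate 1 or 2 (adjusted p = 0.094, 0.0636, 0.0777 and 0.0692) and with Rn45s in the totals (adjusted p = 0.0748). The Raptor KO CD4+ call was lost without resting replicate 1 (-1.40, adjusted p = 0.0521) or stimulated replicate 3 (-1.25, adjusted p = 0.069), and the WT CD4+ call in a fit of the compared groups alone (adjusted p = 0.0769).

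Of 15 circadian clock genes, 12 were tested. On stimulation 2 were higher and 7 lower in WT CD8+ cells, where 32.0% of all genes were called higher and 30.8% lower, and 2 were higher and 6 lower in WT CD4+ cells, where 32.4% were called higher and 32.5% lower. Nr1d2, a Rev-erb repressor, fell by 3.13 ± 0.24 in CD8+ (adjusted p = 8.87e-15) and fell by 3.23 ± 0.26 in CD4+ cells (adjusted p = 4.01e-14). Clock, an activator of the core loop, fell by 1.79 ± 0.23 in CD8+ (adjusted p = 9.59e-09) and fell by 1.53 ± 0.23 in CD4+ cells (adjusted p = 1.7e-07). The median log2 fold change of the tested clock genes was -1.35 in WT CD8+ and -1.02 in WT CD4+ cells, beside 0.00 and -0.03 for all genes.

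Id2 and Id3 were called on stimulation in different groups. Id2 stood at 9.20, 7.96 and 8.67 CPM in stimulated Rictor KO, at 29.3, 36.1 and 26.3 CPM in stimulated Raptor KO and at 8.28, 16.1 and 7.64 CPM in stimulated WT CD8+ libraries. Resting CD8+ libraries held 36.0, 31.1 and 34.8 CPM in Raptor KO and 32.6, 27.9 and 31.1 CPM in WT. The stimulated Rictor KO and WT libraries lay below all resting ones, whereas stimulated Raptor KO libraries overlapped the resting Raptor KO ones. Stimulation lowered Id2 by 1.60 ± 0.29 in WT CD8+ cells (adjusted p = 1.01e-05; with Rn45s in the totals -0.83, adjusted p = 0.0885). In Raptor KO CD8+ cells its change was -0.16 ± 0.26 (adjusted p = 0.623), and the difference between the genotypes was 1.44 ± 0.38 (adjusted p = 0.0296). That difference lost its call without resting WT replicate 1 or 3, stimulated WT replicate 1 or 3, resting Raptor KO replicate 2 or stimulated Raptor KO replicate 2 (adjusted p = 0.0739, 0.0567, 0.0876, 0.113, 0.0705 and 0.0807), with Rn45s in the totals (0.98, adjusted p = 0.675) and with DESeq2 (adjusted p = 0.0581). CD4+ libraries held 19.4, 27.6 and 17.0 CPM in stimulated Raptor KO and 25.3, 29.0 and 10.2 CPM in stimulated WT, and 18.7, 23.5 and 18.0 CPM in resting Raptor KO and 26.4, 36.8 and 28.2 CPM in resting WT cells. Stimulated and resting libraries overlapped in both genotypes, and resting Raptor KO libraries lay below resting WT ones. The fall in WT CD4+ cells, 0.59 ± 0.26 (adjusted p = 0.0467), was lost without resting replicate 2 (-0.44, adjusted p = 0.2), resting replicate 3 (-0.65, adjusted p = 0.06) or stimulated replicate 3 (-0.16, adjusted p = 0.582), with DESeq2 (adjusted p = 0.119) and with Rn45s in the totals (adjusted p = 0.447).

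Id3 fell with stimulation in Raptor KO cells of both subsets. CD8+ libraries held 45.0, 37.2 and 29.4 CPM in stimulated Rictor KO, 18.4, 13.1 and 16.5 CPM in stimulated Raptor KO and 20.5, 18.7 and 25.7 CPM in stimulated WT cells, and 29.3, 24.3 and 26.7 CPM in resting Raptor KO and 18.4, 16.4 and 14.6 CPM in resting WT cells. Stimulated Rictor KO libraries were all above those of Raptor KO and WT. In CD4+ cells libraries held 18.8, 11.0 and 20.3 CPM in stimulated Raptor KO and 29.2, 21.8 and 34.1 CPM in stimulated WT, and 42.7, 35.3 and 27.4 CPM in resting Raptor KO and 45.2, 40.7 and 25.2 CPM in resting WT cells. The fall in Raptor KO was 0.76 ± 0.26 in CD8+ (adjusted p = 0.0107) and 1.05 ± 0.24 in CD4+ cells (adjusted p = 0.000346). In CD8+ cells the call was lost without resting replicate 1 (-0.69, adjusted p = 0.0507) or stimulated replicate 2 (-0.64, adjusted p = 0.0588) and with Rn45s in the totals (-0.47, adjusted p = 0.391). In WT the change was 0.42 ± 0.25 in CD8+ (adjusted p = 0.145; with Rn45s in the totals 1.22, adjusted p = 0.0098) and -0.34 ± 0.21 in CD4+ cells (adjusted p = 0.159; without resting replicate 3 -0.58, adjusted p = 0.0252). The difference of the CD8+ responses of Raptor KO and WT, -1.18 ± 0.36, did not pass (adjusted p = 0.0613), but did with no filter on low counts (adjusted p = 0.0232) and in a fit of the compared groups alone (adjusted p = 0.0338). That of the CD4+ responses, -0.70 ± 0.32, did not pass either (adjusted p = 0.199).

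**Figure D3:**
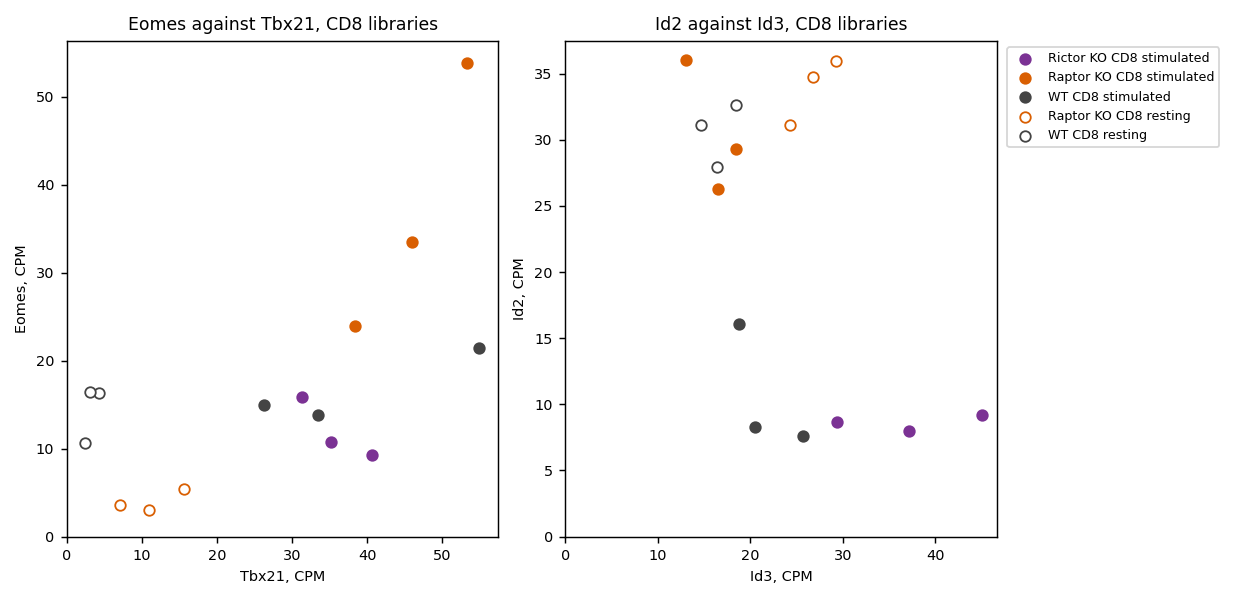
Level of Eomes against Tbx21 and of Id2 against Id3 in CPM in each of the 15 CD8+ libraries, with filled points for stimulated and open points for resting cells and a colour per genotype. Stimulated Raptor KO libraries lie above stimulated Rictor KO and WT libraries for Eomes (23.9 CPM or more) and Id2 (26.3 CPM or more), at Tbx21 levels that overlap.

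The E proteins that Id2 and Id3 hold off DNA were measured beside them, with Id1 as a further inhibitor, and 3 of these 4 genes were tested. On stimulation Tcf3, which encodes E2A, rose by 0.88 ± 0.21 in WT CD8+ (adjusted p = 0.000464) and by 0.72 ± 0.22 in WT CD4+ cells (adjusted p = 0.00383). Tcf12, which encodes HEB, changed by -0.66 ± 0.15 in CD8+ (adjusted p = 0.00013) and -0.66 ± 0.15 in CD4+ cells (adjusted p = 0.000147), and with Rn45s in the totals by 0.13 in CD8+ (adjusted p = 0.785) and -0.40 in CD4+ cells (adjusted p = 0.396). Id1 was not tested.

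Of the repressor pair, Bcl6 fell, while the test as set up called no change of Prdm1, though several alternatives did. Bcl6 stood at 0.634, 0.265 and 0 CPM in stimulated Rictor KO, at 0, 0 and 0.392 CPM in stimulated Raptor KO and at 1.97, 0.535 and 1.41 CPM in stimulated WT CD8+ libraries. Resting CD8+ libraries held 8.54, 3.38 and 8.91 CPM in Raptor KO and 4.97, 5.75 and 2.44 CPM in WT, above every stimulated one. Raptor KO CD8+ cells gave 1 count stimulated and 29 resting, and the resting level was 38.7 times the stimulated one (95% interval 6.42 to 1580; adjusted p = 7.98e-06). WT CD8+ cells showed a fall of 1.59 ± 0.62 (adjusted p = 0.0239), lost without resting replicate 1 or 2 or stimulated replicate 2 or 3 (adjusted p = 0.0746, 0.0955, 0.0735 and 0.0547), with no filter on low counts (adjusted p = 0.0721) and with Rn45s in the totals (-0.80, adjusted p = 0.349). CD4+ libraries held 1.14, 0.689 and 2.83 CPM in stimulated Raptor KO and 3.24, 4.01 and 4.13 CPM in stimulated WT, and 10.7, 13.9 and 6.25 CPM in resting Raptor KO and 10.4, 6.45 and 4.62 CPM in resting WT cells. The fall was 2.61 ± 0.56 in Raptor KO CD4+ cells (adjusted p = 0.00013), and the change in WT CD4+ cells was -0.85 ± 0.49 (adjusted p = 0.122). The difference between these 2 changes, -1.76 ± 0.76, did not pass (adjusted p = 0.167).

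Prdm1 ranged from 0 to 2.61 CPM in stimulated and 1.78 to 14.0 CPM in resting CD8+ libraries, and from 0 to 12.0 CPM in stimulated and 7.82 to 17.4 CPM in resting CD4+ libraries. Its highest library was a resting WT CD4+ one. Stimulated and resting libraries overlapped in Raptor KO CD8+ cells and in CD4+ cells of both genotypes, but not in WT CD8+ cells, at 0.788, 0 and 1.13 CPM stimulated and 5.67, 7.39 and 1.83 CPM resting. Its log2 changes on stimulation were -2.38 ± 1.12 in Raptor KO CD8+ (adjusted p = 0.0783), -2.58 ± 1.21 in WT CD8+ (adjusted p = 0.0701), -1.36 ± 0.83 in Raptor KO CD4+ (adjusted p = 0.182) and -1.23 ± 0.76 in WT CD4+ cells (adjusted p = 0.165). In WT CD8+ cells it was called lower without resting replicate 3 (-3.02, adjusted p = 0.0483), with DESeq2 (adjusted p = 0.027), with Rn45s in the totals (-1.80, adjusted p = 0.0337) and in a fit of the compared groups alone (adjusted p = 0.00573). The last 2 settings also called it lower in Raptor KO CD8+ cells (adjusted p = 0.00951 and 0.0494). In Raptor KO CD4+ cells it was called lower with Rn45s in the totals (-1.56, adjusted p = 0.0216) and with limma-voom (-2.58, adjusted p = 0.0478). In WT CD4+ cells it was called lower without stimulated replicate 2 (-2.50, adjusted p = 0.017) and with limma-voom (-1.86, adjusted p = 0.0364). Prdm1 was over the cutoff of the filter on low counts in 9 libraries and Bcl6 in 8. For both, resting WT CD4+ was the only group with every library over it.

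Of 10 follicular helper genes, which Bcl6 is known to govern in CD4+ cells, 8 were tested. On stimulation 3 rose and 2 fell in WT CD8+ cells and again in WT CD4+ cells, where 62.8% and 64.9% of all genes were called, with median log2 fold changes of 0.60 and -0.20. Between stimulated Raptor KO and WT CD4+ cells 2 were higher and 1 lower, against 8.82% of all genes called higher and 8.56% lower. Cxcr5, the B cell follicle homing receptor, averaged 0.852 ± 0.751 CPM in stimulated Raptor KO and 4.17 ± 0.528 CPM in stimulated WT CD4+ cells, a difference of -2.09 ± 0.69 (adjusted p = 0.0303). This call was lost without WT replicate 3 (-2.03, adjusted p = 0.0916) or Raptor KO replicate 1 (-2.25, adjusted p = 0.0703) or 2 (-1.65, adjusted p = 0.129). Il6st, the shared chain of interleukin-6 family receptors, averaged 71.5 ± 8.47 CPM in Raptor KO and 41.6 ± 4.87 CPM in WT (0.78 ± 0.16, adjusted p = 0.000616; with Rn45s in the totals 0.26, adjusted p = 0.69).

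Loss of Raptor in stimulated CD8+ cells came with higher Zeb2, Id2 and Eomes and no detectable difference in Tbx21. Those 3 of the 10 genes were called, all higher, where 11.7% of all genes were called, 6.30% higher and 5.42% lower. Median log2 fold changes were 0.47 for the 10 genes and 0.03 for all genes. Zeb2 averaged 46.3 ± 3.34 CPM in Raptor KO and 14.7 ± 3.74 CPM in WT (SD, n = 3 each), a difference of 1.62 ± 0.28 on the log2 scale (adjusted p = 5.55e-05). Id2 averaged 30.5 ± 5.02 CPM in Raptor KO and 10.7 ± 4.69 CPM in WT (log2 difference 1.59 ± 0.28, adjusted p = 0.000111). Eomes averaged 37.1 ± 15.3 CPM in Raptor KO and 16.8 ± 4.14 CPM in WT (log2 difference 1.11 ± 0.31, adjusted p = 0.0129). For each of the 3 the libraries of the groups did not overlap, which held for 5 of the 10 genes and for 29.8% of all genes. The Eomes call was lost without WT replicate 1 (0.99, adjusted p = 0.0767) or Raptor KO replicate 2 (0.72, adjusted p = 0.196). Nfil3 differed by -0.86 (adjusted p = 0.228) and was called lower with no filter on low counts (-0.95, adjusted p = 0.0497). With Rn45s in the totals none of the 3 was called, with differences of 1.08 for Zeb2 (adjusted p = 0.11), 1.08 for Id2 (adjusted p = 0.109) and 0.58 for Eomes (adjusted p = 0.372), and the median of all genes shifted by -0.52. Tbx21 differed by 0.22 ± 0.21 (adjusted p = 0.565; 95% interval -0.23 to 0.67), so a difference of this size was not detectable. Bcl6 gave 1 count in Raptor KO and 11 in WT, with the WT level 7.84 times the Raptor KO one (95% interval 1.14 to 337; adjusted p = 0.112).

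Other measures moved with this comparison, and their part in the result was not tested. Protein-coding genes took 31.8% to 47.8% of the counts without Rn45s in stimulated Raptor KO and 49.9% to 62.5% in stimulated WT CD8+ libraries. The regulatory T cell markers Foxp3 and Ikzf2 summed to 124 to 141 CPM in Raptor KO and 19.2 to 41.2 CPM in WT, with Ikzf2 at 132 CPM in Raptor KO and 31.7 CPM in WT and Foxp3 at 1.32 CPM in Raptor KO and 0.310 CPM in WT on average. Of 6 myeloid markers 5 were in the table, all but C1qa, and their sum was 61.7 to 68.2 CPM in Raptor KO and 44.1 to 57.7 CPM in WT, with Lyz2 at 0 in WT. Gamma-delta T cell markers, 5 genes, summed to 7.84 to 15.7 CPM in Raptor KO and 6.51 to 8.56 CPM in WT. Natural killer markers summed to 1.05 to 1.67 CPM in Raptor KO and 0 to 0.283 CPM in WT.

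**Figure D4:**
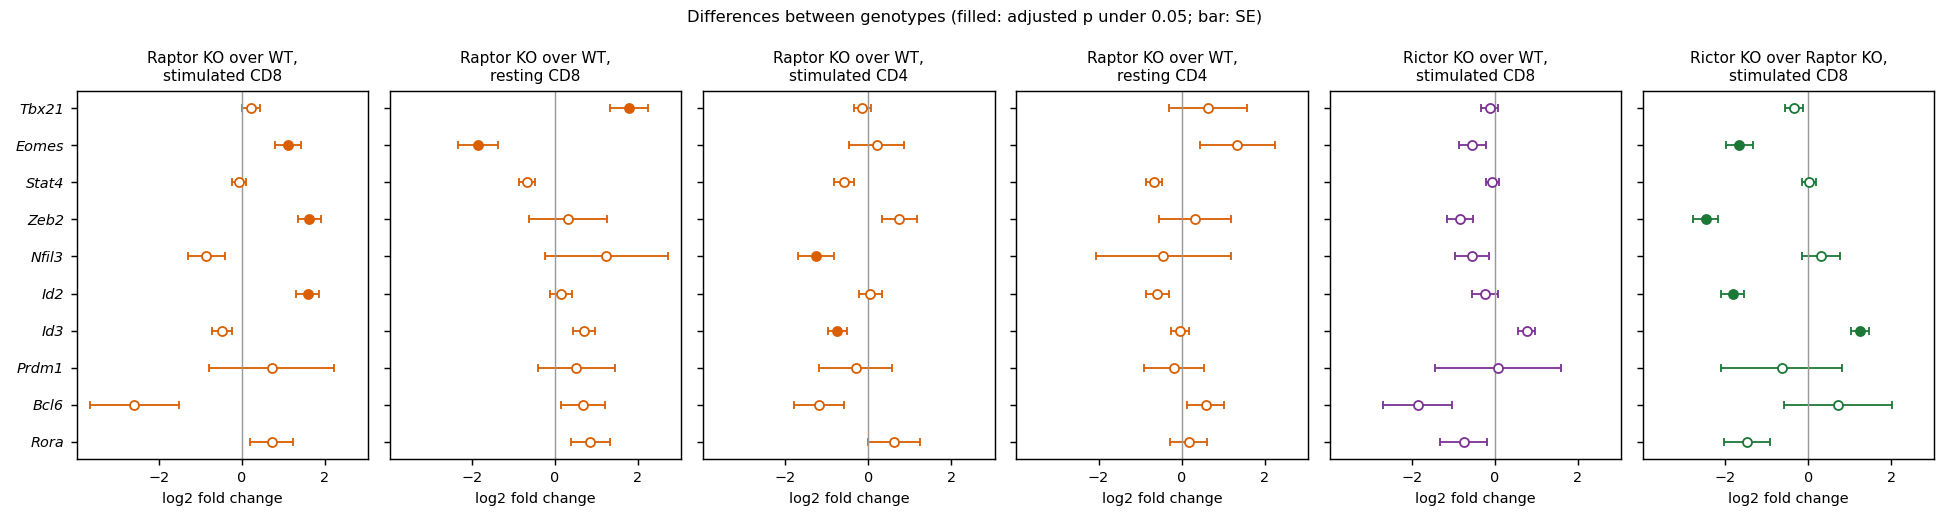
Log2 fold change between genotypes (horizontal axis) with its standard error for the 10 genes in 6 comparisons, with filled points for an adjusted p under 0.05. Eomes, Id2 and Zeb2 lie right of 0 for Raptor KO over WT in stimulated CD8+ cells and left of 0 for Rictor KO over Raptor KO, and no point is filled for Rictor KO over WT.

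Some T-box target genes were higher in the same comparison, but none of the first 4 of the list was called. Of the 13 tested, 4 were higher and none lower in stimulated Raptor KO than WT CD8+ cells, against 6.30% of all genes called higher and 5.42% lower, with a median log2 fold change of 0.41 beside 0.03 for all genes. Ctsw, a cytotoxic cell protease, averaged 44.0 ± 2.48 CPM in Raptor KO and 9.13 ± 4.57 CPM in WT (2.36 ± 0.25, adjusted p = 4.69e-09). Ccl3, a chemokine, averaged 256 ± 128 CPM in Raptor KO and 45.3 ± 29.6 CPM in WT (2.45 ± 0.52, adjusted p = 0.00671; 0.131 in a fit of the compared groups alone and 0.214 with Rn45s in the totals). The log2 differences of those first 4 genes were, for Ifng, 0.41 ± 0.33 (adjusted p = 0.468), for Cxcr3 -1.71 ± 0.64 (adjusted p = 0.077), for Il2rb -0.26 ± 0.16 (adjusted p = 0.322) and for Gzmb -0.03 ± 0.33 (adjusted p = 0.971). Cxcr3 was called lower without WT replicate 2 (-2.01, adjusted p = 0.0326), without Raptor KO replicate 3 (adjusted p = 0.00314), with Rn45s in the totals, with no filter on low counts and with limma-voom (adjusted p = 0.0182, 0.031 and 0.0423). The E protein gene Tcf4 averaged 8.85 ± 2.32 CPM in Raptor KO and 2.55 ± 1.32 CPM in WT (1.92 ± 0.46, adjusted p = 0.00388), while Tcf3 and Tcf12 differed by -0.21 ± 0.19 and 0.31 ± 0.15 (adjusted p = 0.525 and 0.174). The Tcf4 call was lost without WT replicate 3 (1.48, adjusted p = 0.0585) or Raptor KO replicate 3 (1.65, adjusted p = 0.0552) and with Rn45s in the totals (1.41, adjusted p = 0.118). Of the 16 receptors and kinases 1 was higher, Jak2, by 1.00 ± 0.22 (adjusted p = 0.00275; 0.145 in a fit of the compared groups alone and 0.434 with Rn45s in the totals), and Il12rb1 differed by 0.53 ± 0.18 (adjusted p = 0.054; among the alternatives 0.0299 with DESeq2 and 0.0131 with limma-voom).

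Factors of naive and memory cells, 13 genes, gave 2 higher and 2 lower in the same comparison, where 6.30% of all genes were called higher and 5.42% lower. On stimulation 12 were lower and none higher in WT CD8+ cells and 9 were lower in WT CD4+ cells, where 30.8% and 32.5% of all genes were called lower. Tcf7, which encodes TCF-1, averaged 71.1 ± 10.9 CPM in stimulated Raptor KO and 94.9 ± 13.7 CPM in stimulated WT CD8+ cells (-0.42 ± 0.14, adjusted p = 0.0366). That call was lost without WT replicate 3 (-0.29, adjusted p = 0.253) or Raptor KO replicate 1 (-0.41, adjusted p = 0.091) or 2 (-0.31, adjusted p = 0.207), with no filter on low counts (-0.51, adjusted p = 0.0658), in a fit of the compared groups alone (-0.44, adjusted p = 0.0708) and with Rn45s in the totals (-0.96, adjusted p = 0.131). Myb, known for memory precursors, averaged 46.8 ± 6.25 CPM in Raptor KO and 16.0 ± 5.21 CPM in WT (1.57 ± 0.26, adjusted p = 7.79e-05; with Rn45s in the totals 1.05, adjusted p = 0.108). Bach2, a repressor that restrains effector genes, averaged 120 ± 20.6 CPM in Raptor KO and 68.0 ± 11.9 CPM in WT (0.82 ± 0.18, adjusted p = 0.00238; with Rn45s in the totals 0.29, adjusted p = 0.633). Lef1 and Foxo1 differed by 0.24 ± 0.15 and 0.00 ± 0.18 (adjusted p = 0.311 and 1.0). Of 20 factors of other lineages 18 were tested and 4 were higher, led by Gata3, the T helper 2 factor, at 47.8 ± 10.8 CPM in Raptor KO and 16.4 ± 6.61 CPM in WT (1.57 ± 0.36, adjusted p = 0.00648; with Rn45s in the totals 1.05, adjusted p = 0.101). Of 12 tested clock genes 2 were higher, among them Clock (1.03 ± 0.24, adjusted p = 0.00281; with Rn45s in the totals 0.50, adjusted p = 0.462), and none of the 8 follicular helper genes passed.

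In stimulated CD4+ cells loss of Raptor came with lower Nfil3 and Id3. Those 2 of the 10 genes were called, both lower, where 17.4% of all genes were called, so the members' share was near the background. Median log2 fold changes were -0.22 for the 10 genes and 0.04 for all genes. Nfil3 averaged 11.2 ± 2.23 CPM in Raptor KO and 27.5 ± 15.8 CPM in WT, a difference of -1.26 ± 0.43 (adjusted p = 0.0398), and the libraries overlapped. The call was lost without WT replicate 1 or 2 or Raptor KO replicate 1, 2 or 3 (-1.29, -0.71, -1.44, -1.22 and -1.14; adjusted p = 0.0567, 0.281, 0.0651, 0.111 and 0.129), with limma-voom (adjusted p = 0.155) and in a fit of the compared groups alone (adjusted p = 0.162). Id3 averaged 16.7 ± 4.98 CPM in Raptor KO and 28.4 ± 6.18 CPM in WT (SD, n = 3 each), a difference of -0.75 ± 0.24 (adjusted p = 0.023), with every Raptor KO library below every WT one. The groups did not overlap, in either direction, for 2 of the 10 genes and 33.4% of all. The Id3 call was lost without WT replicate 3 (-0.55, adjusted p = 0.191) or Raptor KO replicate 2 (-0.55, adjusted p = 0.15). Stat4 differed by -0.59 ± 0.23 (adjusted p = 0.0728) and was called lower without WT replicate 2 (-0.76, adjusted p = 0.0321) or Raptor KO replicate 1 (-0.90, adjusted p = 0.0204). Zeb2, Id2 and Eomes, the genes called in CD8+ cells, differed by 0.74 ± 0.43, 0.05 ± 0.27 and 0.20 ± 0.67 (adjusted p = 0.236, 0.931 and 0.871). The test of the CD8+ minus CD4+ difference of the Raptor effect called none of the 10 genes, against 0.334% of all genes. Id2 alone had an unadjusted p under 0.05 (difference 1.54 ± 0.39, adjusted p = 0.073), and DESeq2 and limma-voom called none either. Id2 was called without stimulated WT CD4+ replicate 3 (1.98, adjusted p = 0.00138) or stimulated WT CD8+ replicate 2 (1.89, adjusted p = 0.0234). It was also called with no filter on low counts (adjusted p = 0.00319) and with protein-coding genes only (adjusted p = 0.0423). A block by replicate number or by library code called it as well (adjusted p = 0.0191 and 0.0135). The Raptor KO minus WT difference of the CD4+ stimulation response also called none of the 10, against 5.82% of all genes, with Id3 and Bcl6 under an unadjusted 0.05 and none called by DESeq2 or limma-voom.

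Among the 13 naive and memory factors 6 were higher and 1 lower in stimulated Raptor KO than WT CD4+ cells, where 8.82% of all genes were called higher and 8.56% lower, a background that holds for each list of this comparison. Tcf7 averaged 88.3 ± 11.2 CPM in Raptor KO and 154 ± 7.18 CPM in WT (-0.80 ± 0.13, adjusted p = 3.71e-05). Klf2, a factor of quiescent and recirculating cells, averaged 8.19 ± 4.29 CPM in Raptor KO and 2.22 ± 1.67 CPM in WT (2.08 ± 0.50, adjusted p = 0.00564; without WT replicate 3 1.40, adjusted p = 0.0535; with Rn45s in the totals 1.58, adjusted p = 0.0592). Of the 18 tested factors of other lineages 3 were higher and 2 lower, with Tox, known from exhausted and follicular cells, at 23.5 ± 1.30 CPM in Raptor KO and 6.85 ± 3.13 CPM in WT (1.65 ± 0.30, adjusted p = 8.93e-05; with Rn45s in the totals 1.11, adjusted p = 0.0951). Ahr, the aryl hydrocarbon receptor, averaged 4.92 ± 1.67 CPM in Raptor KO and 18.1 ± 10.2 CPM in WT (-1.82 ± 0.45, adjusted p = 0.00411; without WT replicate 2 -1.35, adjusted p = 0.0559; 0.0794 with limma-voom and 0.0679 in a fit of the compared groups alone). Of the 16 receptors and kinases 3 were higher and 1 lower, of the 13 T-box targets 1 higher, of the 12 clock genes 2 higher, and of the E proteins and memory-phenotype CD8+ genes none passed. In this comparison Foxp3 and Ikzf2 summed to 66.9 to 94.0 CPM in Raptor KO and 25.4 to 47.6 CPM in WT, and the 5 myeloid markers in the table to 41.6 to 50.5 CPM in Raptor KO and 20.8 to 27.5 CPM in WT, with Adgre1 at 0 in Raptor KO and Lyz2 and Adgre1 at 0 in WT. Their part in the result was not tested.

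In resting CD8+ cells the T-box factors went in opposite directions. Tbx21 was higher and Eomes lower in Raptor KO, and they were the 2 of 10 genes called, where 1.12% of all genes were called. Tbx21 averaged 11.2 ± 4.21 CPM in Raptor KO and 3.26 ± 0.914 CPM in WT, a difference of 1.79 ± 0.46 (adjusted p = 0.0415). Eomes averaged 4.01 ± 1.24 CPM in Raptor KO and 14.5 ± 3.30 CPM in WT (SD, n = 3 each), a difference of -1.85 ± 0.48 (adjusted p = 0.042). Neither gene overlapped between the groups, which held for 5 of the 10 genes and 14.2% of all. Both calls lay near the threshold. Tbx21 lost its call without WT replicate 1, 2 or 3 or Raptor KO replicate 1 or 2 (2.01, 1.65, 1.73, 1.83 and 1.49; adjusted p = 0.0854, 0.17, 0.15, 0.0908 and 0.24). Eomes lost it without any 1 of the 6 libraries, with differences of -2.14 to -1.66 and adjusted p-values of 0.0505 to 0.171. With Rn45s in the totals or with limma-voom neither was called (adjusted p = 0.271 and 0.3 for Tbx21, 0.109 and 0.183 for Eomes), and DESeq2 called both. Tbx21 was not called with median-ratio size factors (adjusted p = 0.0508) or in a fit of the compared groups alone (adjusted p = 0.0565). Of memory-phenotype CD8+ genes, a list of 11 that holds both T-box genes, 2 were higher and 2 lower, where 0.505% of all genes were called higher and 0.619% lower. Tbx21 is 1 of the 2 higher and Eomes 1 of the 2 lower, so these counts in part repeat the calls above. Ly6c2, a surface marker of memory-phenotype cells, averaged 75.6 ± 10.9 CPM in Raptor KO and 27.8 ± 2.18 CPM in WT (1.45 ± 0.34, adjusted p = 0.0363) and lost its call without any 1 of the 6 libraries (adjusted p of 0.0636 to 0.164) and with Rn45s in the totals (1.42, adjusted p = 0.14). None of the 13 T-box targets, the 16 receptors and kinases, the 8 follicular helper genes or the E proteins passed.

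Several marker sums moved with this comparison, and their part in the result was not tested. Gamma-delta T cell markers, 5 genes, summed to 35.8 to 60.4 CPM in resting Raptor KO and 11.3 to 13.1 CPM in resting WT CD8+ libraries, with Trdc at 22.6 CPM in Raptor KO and 6.45 CPM in WT on average and Sox13 at 0 in WT. Of 6 natural killer markers 5 were in the table, all but Klra4, and summed to 1.78 to 8.54 CPM in Raptor KO and 1.22 to 2.46 CPM in WT, with Klra8 at 0 in Raptor KO and Klra8 and Fcer1g at 0 in WT. Foxp3 and Ikzf2 summed to 40.5 to 51.2 CPM in Raptor KO and 9.93 to 18.3 CPM in WT, with Foxp3 at 3.09 CPM in Raptor KO and 3.29 CPM in WT on average. Among factors of other lists, Myb averaged 71.7 ± 21.4 CPM in Raptor KO and 12.8 ± 1.19 CPM in WT (2.48 ± 0.29, adjusted p = 2.91e-06). Bhlhe40, a repressor in the lists of clock and other lineage factors, averaged 27.1 ± 11.1 CPM in Raptor KO and 1.12 ± 0.617 CPM in WT (4.47 ± 0.69, adjusted p = 0.00123; 0.167 with limma-voom).

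In resting CD4+ cells none of the 10 genes was called between Raptor KO and WT, where 0.143% of all genes were called (0.0953% higher and 0.0477% lower). Of all lists 1 gene passed, Myb, at 37.5 ± 2.25 CPM in Raptor KO and 11.5 ± 2.53 CPM in WT (1.68 ± 0.31, adjusted p = 0.00528), and it was lost without WT replicate 1 or 2 (adjusted p = 0.0694 and 0.0778) and with Rn45s in the totals (adjusted p = 0.204). Of the 10 genes Id2 and Stat4 had an unadjusted p under 0.05, and DESeq2 and limma-voom called none. Stat4 differed by -0.67 ± 0.20 (adjusted p = 0.218) and Id2 by -0.58 ± 0.27 (adjusted p = 0.612). Stat4 lay lower in every Raptor KO than in every WT library in both resting subsets, and in CD4+ cells 3 of the 10 genes and 12.3% of all had no overlap of the groups. In CD8+ cells its difference was -0.67 ± 0.19 (adjusted p = 0.0779).

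Loss of Rictor, measured in stimulated CD8+ cells, called none of the 10 genes against WT, where 0.162% of all genes were called (0.105% higher and 0.0572% lower). Id3, Bcl6 and Zeb2 had an unadjusted p under 0.05, and DESeq2 and limma-voom called none. Id3 averaged 37.2 ± 7.84 CPM in Rictor KO and 21.7 ± 3.64 CPM in WT, a difference of 0.77 ± 0.20 (adjusted p = 0.144; 0.0225 with no filter on low counts). Zeb2 averaged 8.45 ± 1.24 CPM in Rictor KO and 14.7 ± 3.74 CPM in WT (SD, n = 3 each), a difference of -0.85 ± 0.31 (adjusted p = 0.479). The libraries of these 2 genes did not overlap, as for 3 of the 10 genes and 13.5% of all. Bcl6 gave 3 counts in Rictor KO and 11 in WT, with the WT level 4.15 times the Rictor KO one (95% interval 1.10 to 23.2, for counting error only). The edgeR test did not call Bcl6 (adjusted p = 0.731), and its libraries overlapped. Tbx21 differed by -0.12 ± 0.21 (95% interval -0.56 to 0.31) and Id2 by -0.23 ± 0.31 (-0.89 to 0.43). Of the T-box targets 1 was lower, Ifng, at 24.4 ± 4.75 CPM in Rictor KO and 130 ± 54.9 CPM in WT (-2.42 ± 0.37, adjusted p = 0.0204), and of the receptors and kinases 1 was higher, Il6ra, at 12.1 ± 2.66 CPM in Rictor KO and 5.51 ± 0.152 CPM in WT (1.14 ± 0.24, adjusted p = 0.0213). The Il6ra call was lost without any 1 library other than Rictor KO replicate 1 (adjusted p of 0.0511 to 0.33), with limma-voom (adjusted p = 0.161), in a fit of the compared groups alone (adjusted p = 0.0666) and with Rn45s in the totals (1.09, adjusted p = 1.0). The Ifng call was lost without WT replicate 1 or 2 or any 1 of the Rictor KO libraries (differences of -2.56 to -2.06, adjusted p of 0.0609 to 0.123), in a fit of the compared groups alone (adjusted p = 0.159) and with a block by library code (-1.89, adjusted p = 0.0553). Gzmb averaged 432 ± 39.8 CPM in Rictor KO and 1.36e+03 ± 246 CPM in WT (-1.65 ± 0.34, adjusted p = 0.0626; 5.49e-10 with DESeq2, 2.76e-05 with limma-voom and 0.0264 with Rn45s in the totals). Gamma-delta T cell markers summed to 25.7 to 48.1 CPM in Rictor KO and 6.51 to 8.56 CPM in WT, and their part in the result was not tested.

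Set directly against each other, the stimulated CD8+ knockouts differed in 4 of the 10 genes, where 15.3% of all genes were called (7.00% higher and 8.30% lower). Zeb2, Id2 and Eomes were lower and Id3 higher in Rictor KO than in Raptor KO. Zeb2 differed by -2.47 ± 0.30 (adjusted p = 5.23e-08), Id2 by -1.82 ± 0.28 (adjusted p = 1.05e-05) and Eomes by -1.66 ± 0.32 (adjusted p = 0.000261). Id3 averaged 37.2 ± 7.84 CPM in Rictor KO and 16.0 ± 2.71 CPM in Raptor KO (SD, n = 3 each), a difference of 1.25 ± 0.23 (adjusted p = 0.000109). None of the 4 genes overlapped between the groups, as for 5 of the 10 genes and 33.8% of all. The Eomes call was lost with Rn45s in the totals (-1.27, adjusted p = 0.0558), and the other 3 held in every alternative, also without any 1 library. This comparison shares the Raptor KO libraries with that of Raptor KO and WT. Foxp3 and Ikzf2 summed to 19.3 to 34.2 CPM in Rictor KO and 124 to 141 CPM in Raptor KO, and the 5 gamma-delta T cell markers to 25.7 to 48.1 CPM in Rictor KO and 7.84 to 15.7 CPM in Raptor KO, and their part in the result was not tested. Of the 13 tested T-box targets 1 was higher and 8 lower in Rictor KO, with a median log2 fold change of -1.11 beside -0.04 for all genes. Ifng averaged 24.4 ± 4.75 CPM in Rictor KO and 173 ± 60.7 CPM in Raptor KO (-2.83 ± 0.37, adjusted p = 9.27e-05), and Gzmb 432 ± 39.8 CPM in Rictor KO and 1.33e+03 ± 340 CPM in Raptor KO (-1.62 ± 0.34, adjusted p = 0.0029; with Rn45s in the totals -1.17, adjusted p = 0.0506). Cxcr3 averaged 8.35 ± 2.71 CPM in Rictor KO and 1.05 ± 1.81 CPM in Raptor KO (2.59 ± 0.59, adjusted p = 0.00177).

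The 13 naive and memory factors gave 2 higher and 2 lower between the knockouts, where 7.00% of all genes were called higher and 8.30% lower, with Tcf7 at 121 ± 7.42 CPM in Rictor KO and 71.1 ± 10.9 CPM in Raptor KO (0.77 ± 0.14, adjusted p = 6.66e-05). Myb averaged 13.8 ± 6.41 CPM in Rictor KO and 46.8 ± 6.25 CPM in Raptor KO (-1.82 ± 0.26, adjusted p = 7.4e-06). Of the 18 tested factors of other lineages 1 was higher and 7 lower, with Gata3 at 10.3 ± 4.07 CPM in Rictor KO and 47.8 ± 10.8 CPM in Raptor KO (-2.21 ± 0.37, adjusted p = 0.00037). The E protein gene Tcf4 was lower, by 1.85 ± 0.45 (adjusted p = 0.00297; with Rn45s in the totals -1.43, adjusted p = 0.101).

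Between the subsets, Eomes, Zeb2 and Stat4 were higher in CD8+ than in CD4+ cells once stimulated, in both genotypes. In stimulated Raptor KO cells these 3 of the 10 genes were called, all higher, against 5.36% of all genes. The differences were 3.99 ± 0.44 for Eomes (adjusted p = 2.11e-08), 2.77 ± 0.33 for Zeb2 (adjusted p = 4.27e-08) and 1.88 ± 0.22 for Stat4 (adjusted p = 2.2e-08). In stimulated WT cells 4 of the 10 were called against 5.18% of all genes, with Eomes at 3.08 ± 0.44 (adjusted p = 5.57e-06), Zeb2 at 1.89 ± 0.36 (adjusted p = 0.000381) and Stat4 at 1.36 ± 0.19 (adjusted p = 1.38e-06). Id2 was the fourth, lower by 1.00 ± 0.29 (adjusted p = 0.0291), and lost its call without WT CD4+ replicate 1 or 2 or WT CD8+ replicate 1 or 3 (-0.88, -0.65, -0.88 and -0.78; adjusted p = 0.114, 0.314, 0.153 and 0.202), with Rn45s in the totals and with limma-voom (adjusted p = 0.746 and 0.0848). Tbx21 differed by -0.63 ± 0.20 in stimulated WT cells (adjusted p = 0.0653) and was called lower without WT CD4+ replicate 1 or 2 or WT CD8+ replicate 3 (-0.76, -0.77 and -1.01; adjusted p = 0.0422, 0.0311 and 0.00188) and with limma-voom (adjusted p = 0.042). In resting Raptor KO cells 1 of the 10 was called against 3.15% of all genes, Tbx21, higher by 3.09 ± 0.55 (adjusted p = 0.000272). In resting WT cells 2 were called against 3.33% of all genes, with Eomes higher by 4.07 ± 0.63 (adjusted p = 2.84e-05) and Id3 lower by 1.15 ± 0.25 (adjusted p = 0.00307). Of the T-box targets 5 of 13 were higher and none lower in resting WT CD8+ than CD4+ cells, against 1.59% of all genes called higher and 1.73% lower, led by Nkg7, a cytotoxic granule protein, at 42.4 ± 16.7 CPM in CD8+ and 2.61 ± 2.01 CPM in CD4+ cells (4.10 ± 0.44, adjusted p = 5.97e-07).

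Per kilobase of annotated exon, the levels of the 10 genes in stimulated WT CD8+ cells ran from 15.4 CPM for Tbx21, 12.1 for Id3 and 11.4 for Stat4 down to 0.195 for Bcl6 and 0.115 for Prdm1. Tbx21 thus had the highest mean of the 10 per length there, but the libraries of these first 3 genes overlapped. They held 13.5, 10.5 and 22.1 CPM per kilobase for Tbx21, 11.4, 10.5 and 14.4 for Id3 and 11.3, 10.2 and 12.7 for Stat4. Zeb2, whose annotated exons are the longest, stood at 0.738 CPM per kilobase. In stimulated Raptor KO CD8+ cells Zeb2 stood at 2.32 and Id2 at 12.5 CPM per kilobase, and in resting WT CD8+ cells Tbx21 at 1.31 and Stat4 at 12.9.

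Across all 27 libraries, other genes with a mean of at least 10 CPM were ranked by Pearson's r of their log2 CPM with each member, as a description of libraries that share depth, culture and genotype. Tbx21 was most like Htt (0.95), Tbkbp1 and Atad5 (0.948 each), and Nfil3 most like Cdkn1a (0.961), Mfsd2a (0.958) and Morf4l2 (0.955), genes of which Cdkn1a encodes the cell cycle inhibitor p21. Eomes was most like Nkg7 (0.903), Crtam (0.884), an adhesion receptor of cytotoxic cells, and Peak1 (0.795). Zeb2 was most like Nras (0.933), Ifng (0.925) and Serpinb9 (0.913), an inhibitor of granzyme B. Bcl6 was most like Tcf7 (0.864), Dync1li2 and Smad3 (0.862 each), and Prdm1 most like Aff4 (0.864), Tent5c (0.835) and Cdc42se1 (0.815). Id2 was most like Dip2b (0.803), Rc3h2 (0.801) and Mef2a (0.798), and Id3, which had the weakest partners of the 10, most like Tpp2 (0.717), Osbp (0.665) and Igf1r (0.646). Rora was most like Cnppd1 (0.89), Impact (0.854) and Vamp2 (0.851), and Stat4 most like Atp8b4 (0.88), Thy1 (0.835) and Klrk1 (0.824), the natural killer receptor NKG2D.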

How the data were processed

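RNA was measured in 27 libraries as counts per gene. Per the submitters' processing notes, the authors aligned reads with STAR 2.6.0a to GRCm38; the deposited file holds whole-number counts, and how reads were assigned to genes (program, annotation, strand) is not given in the sources used here. From there, Rn45s was left out, genes were filtered with filterByExpr (minimum count 10, minimum total 15), libraries were scaled by TMM, and edgeR 4.0.16 in R 4.3.3 fitted 1 mean per group over all 27 libraries with a robust quasi-likelihood test. P-values were adjusted by the Benjamini-Hochberg method over 10493 genes with a threshold of 0.05, in 14 comparisons of groups and 4 differences between effects. The tests were tried on simulated counts. Alternatives used limma 3.58.1, DESeq2 1.42.0, other scalings and filters, a replicate block, and leaving out each library. A 95% interval of a log2 difference is approximate, and that of a ratio of summed counts is exact for counting error. All 10 genes were tested in every comparison, and values are given for those called and for some of those not called. Of each list, counts are given over all members and values for some of the first 4 genes and of the 2 called genes with the largest change. The members and lists were chosen with earlier results of these data known. No library of resting Rictor KO cells or of Rictor KO CD4+ cells is among the 27. Precision is limited by the counts left beside Rn45s: the filter passed a gene at about 5.35 CPM in a library of median size.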

Additional observations from a re-analysis of the deposited data

Results flagged for a closer look

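In CD8+ cells the stimulation response of Eomes was 2.97 higher on the log2 scale in Raptor KO than in WT (SE 0.56, edgeR adjusted p = 0.00143). That of Id2 was 1.44 higher (SE 0.38, adjusted p = 0.0296). Both were picked out because the test of the difference between genotypes passed. In WT the stimulation response of Stat4 was 1.09 higher in CD8+ than in CD4+ cells (SE 0.26, adjusted p = 0.0179), picked out because the test of the difference between subsets passed. With Rn45s in the totals none of these differences was called (adjusted p = 0.0638 for Eomes, 0.675 for Id2 and 0.259 for Stat4). The calls of Id2 and Stat4 were also lost without some single libraries, and that of Id2 with DESeq2 (adjusted p = 0.0581). The groups hold 3 libraries each, so no search for single outlying libraries was made.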

How the results depend on the processing

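Of 180 results for the 10 genes (10 genes in 18 comparisons), 49 were called, of which 27 kept their call in every alternative and 22 lost it in at least 1; of the 131 others, 22 were called in at least 1. None of the called results of the 10 genes changed direction. In stimulated Raptor KO and WT CD4+ cells the count of called members was 2, against 0 with a minimum fold change of 1.5, 1 with limma-voom and 1 in a fit of the compared groups alone, and 0 to 2 without 1 library. In stimulated Raptor KO and WT CD8+ cells it was 3, against 0 with Rn45s in the totals, 4 with no filter on low counts and 2 with the minimum fold, and 2 to 3 without 1 library. In resting CD8+ cells it was 2, against 1 with median-ratio size factors and in a fit of the compared groups alone, 0 with the minimum fold, with Rn45s and with limma-voom, and 0 to 1 without 1 library. Rictor KO and WT gave 0, against 1 with no filter on low counts, and resting WT CD8+ and CD4+ cells 2, against 1 with the minimum fold. The difference of the CD8+ response between Raptor KO and WT gave 2, against 4 with no filter, 1 with the minimum fold, 0 with Rn45s, 1 with DESeq2 and 1 to 3 without 1 library. The CD8+ minus CD4+ Raptor effect gave 0, against 1 with no filter, with protein-coding genes only, with the replicate block and with the block by library code, and 0 to 1 without 1 library. The CD8+ minus CD4+ stimulation effect gave 1, against 2 with no filter, 0 with the minimum fold, 0 with Rn45s and 0 to 2 without 1 library. The causes were not tested.

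In the WT and Raptor KO groups each replicate number goes with 1 library code, whose meaning the labels do not give, and the 3 Rictor KO libraries share 1 code. Deviations of same-numbered libraries correlated by -0.178 to 0.398, and 36 of 42 of these correlations lay above the mean correlation with other numbers. Deviations from a mean of 3 libraries cancel within the group, so that count largely restates that most same-number correlations were positive. With the shared codes this is a hint of pairing, which the labels do not state. Every same-number correlation was over 0.1 in 1 of 14 comparisons, resting CD8+ against CD4+ cells of Raptor KO, where the block changed no call of the 10 genes. With the number as a block, Id3 was called in the CD8+ response difference (-1.17, adjusted p = 0.0438), Id2 in the CD8+ minus CD4+ Raptor effect (1.51, adjusted p = 0.0191), Rora between Rictor KO and Raptor KO (-1.60, adjusted p = 0.0179; not called with the block by library code, -1.08, adjusted p = 0.118), and Prdm1 and Rora on stimulation of WT CD8+ cells (-2.45 and -1.05, adjusted p = 0.0304 and 0.0388). Prdm1 was also called on stimulation of Raptor KO CD8+ cells (-2.19, adjusted p = 0.0409) and, with the block by library code, of WT CD4+ cells (-1.28, adjusted p = 0.0405). With Rn45s in the totals, Tcf12 reversed on stimulation of WT CD8+ cells (0.13), and the split of higher and lower calls over all genes moved. It was 661 higher and 569 lower for Raptor KO over WT in stimulated CD8+ cells, against 55 and 404, and 925 and 898 in stimulated CD4+ cells, against 67 and 617. It was 3363 and 3229 on stimulation of WT CD8+ cells, against 4527 and 1107, and 3397 and 3414 on stimulation of WT CD4+ cells, against 3103 and 1887, and 735 and 871 for Rictor KO over Raptor KO, against 401 and 115. A minimum fold of 1.5 left 237 genes called of 1230 in stimulated CD8+ and 242 of 1823 in stimulated CD4+ cells between Raptor KO and WT. Prdm1, Bcl6 and resting Nfil3 and Zeb2 rest on few counts.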
